A study of Mus musculus with 6 samples.

Results

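Primary granules, also called azurophil granules, are the storage compartment that neutrophil precursors fill at the promyelocyte stage. Myeloperoxidase makes hypochlorous acid from hydrogen peroxide, and the neutrophil serine proteases digest microbial and matrix proteins. The proteases are made as inactive precursors, and dipeptidyl peptidase I cuts them into their active form in the granule, where the proteoglycan serglycin holds many of the cargo proteins. Transcripts of this group are abundant in the granulocyte-monocyte progenitor, the normal cell that leukemia stem cells (LSCs) of the MLL-AF9 model resemble in surface markers.

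The 9 primary granule genes Mpo, Elane, Prtn3, Ctsg, Ctsc, Srgn, Lyz1, Lyz2 and Ms4a3 were taken by symbol from the expression table of WT and Piezo1cKO LSCs. They are 9 of 55367 genes listed, of 26402 with values and of 16746 tested, and all 9 were tested. Bone marrow donors were Mx1-cre; Piezo1 fl/fl mice (Piezo1cKO) or Piezo1 fl/fl littermates (WT). Both were given pIpC, so the floxed alleles and the interferon stimulus are shared and the Mx1-cre transgene is not. Mx1-cre is driven by an interferon-inducible promoter that is active in hematopoietic cells and beyond them. Lineage-negative marrow cells were transduced with a retrovirus carrying MLL-AF9 and YFP and grew as acute myeloid leukemia (AML) in irradiated recipients, and YFP+ LSCs were sorted from recipient marrow as Lin- Sca-1- c-Kit+ CD16/32hi CD34+ cells. An age of 8 to 10 weeks is given for the mice. The round of transplantation and whether the 3 libraries of a group came from separate mice are not given in the sources used here, so p-values measure the spread between these libraries, which may be technical.

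Values were deposited on a log2 scale that pulls each gene towards its mean over the 6 libraries. Undoing this transform gave values at or near whole reads, 14112122 to 15483616 per library, and both scales are reported. "Normalized reads" are these recovered reads divided by the size factor of the library. The Piezo1 transcript, the check of the labels, was recovered at 104, 92 and 113 reads in the WT libraries and at 35, 58 and 45 in the Piezo1cKO libraries, and the groups did not overlap. Among the gate markers, Kit rose from 2522 ± 58.4 to 3425 ± 86.8 normalized reads, Cd34 rose from 3721 ± 60.1 to 5796 ± 162 (SD, n = 3 per group), Fcgr3 stood at 5405 in WT and 5323 in Piezo1cKO, and Fcgr2b fell from 3468 ± 83.7 to 1667 ± 79.4. Ly6g of mature neutrophils had at most 1 read in any library.

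In WT LSCs the 9 genes took 3.65, 3.94 and 3.86% of all recovered reads. In Piezo1cKO LSCs they took 1.94, 2.1 and 2.07%. The means were 3.82% ± 0.149 and 2.04% ± 0.0814 (SD, n = 3 per group), and every Piezo1cKO library lay under every WT library. Most of this was Mpo and Elane, which held 3.49% ± 0.15 of WT reads and 1.81% ± 0.0808 of Piezo1cKO reads. With 3 libraries against 3, an exact two-sided permutation test cannot go below 0.1, the value it gives for groups that do not overlap. In sorted bulk cells, fewer cells that make these transcripts and less transcript per cell cannot be told apart.

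**Figure D1:**
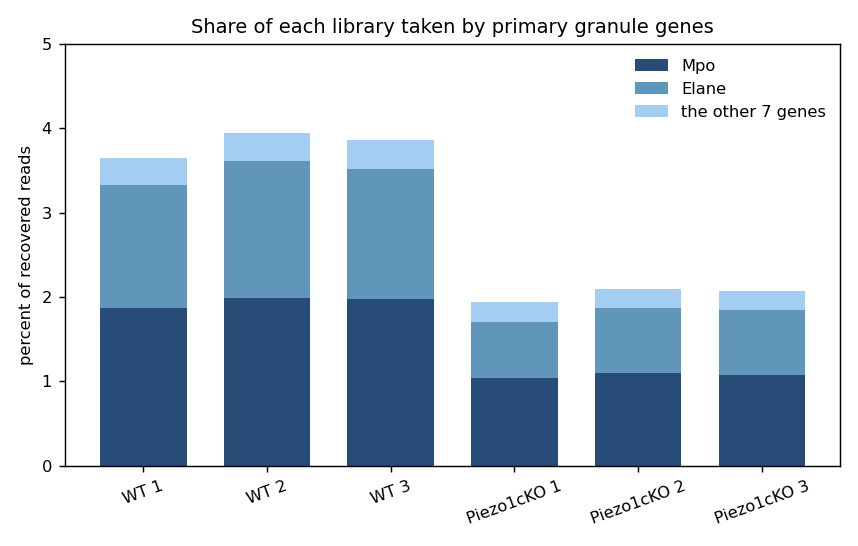
Stacked bars give the percent of recovered reads on Mpo, Elane and the other 7 primary granule genes in each of the 6 libraries. The 3 WT bars reach 3.65 to 3.94% and the 3 Piezo1cKO bars 1.94 to 2.1%.

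Of the 9 genes, 6 were lower, namely Mpo, Elane, Prtn3, Ctsg, Ctsc and Ms4a3. Lyz1 and Lyz2 were higher, and Srgn was not called. Calls were made with limma on the deposited values at an adjusted p under 0.05 (Benjamini-Hochberg over 16746 genes), a threshold that 63% of all genes tested passed, 31.4% lower and 31.6% higher. So a call by itself sets little apart in this comparison, and the sizes carry the description. The values of 8 of the 9 genes did not overlap between groups, beside 66.6% of all genes tested. On recovered reads, 3 of the 9 genes, Ctsc, Elane and Lyz1, also passed an absolute log2 fold change of 1, beside 24.9% of 17352 genes (12.2% lower and 12.7% higher). No member passed it on the deposited scale, where 0.818% of genes did.

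**Figure D2:**
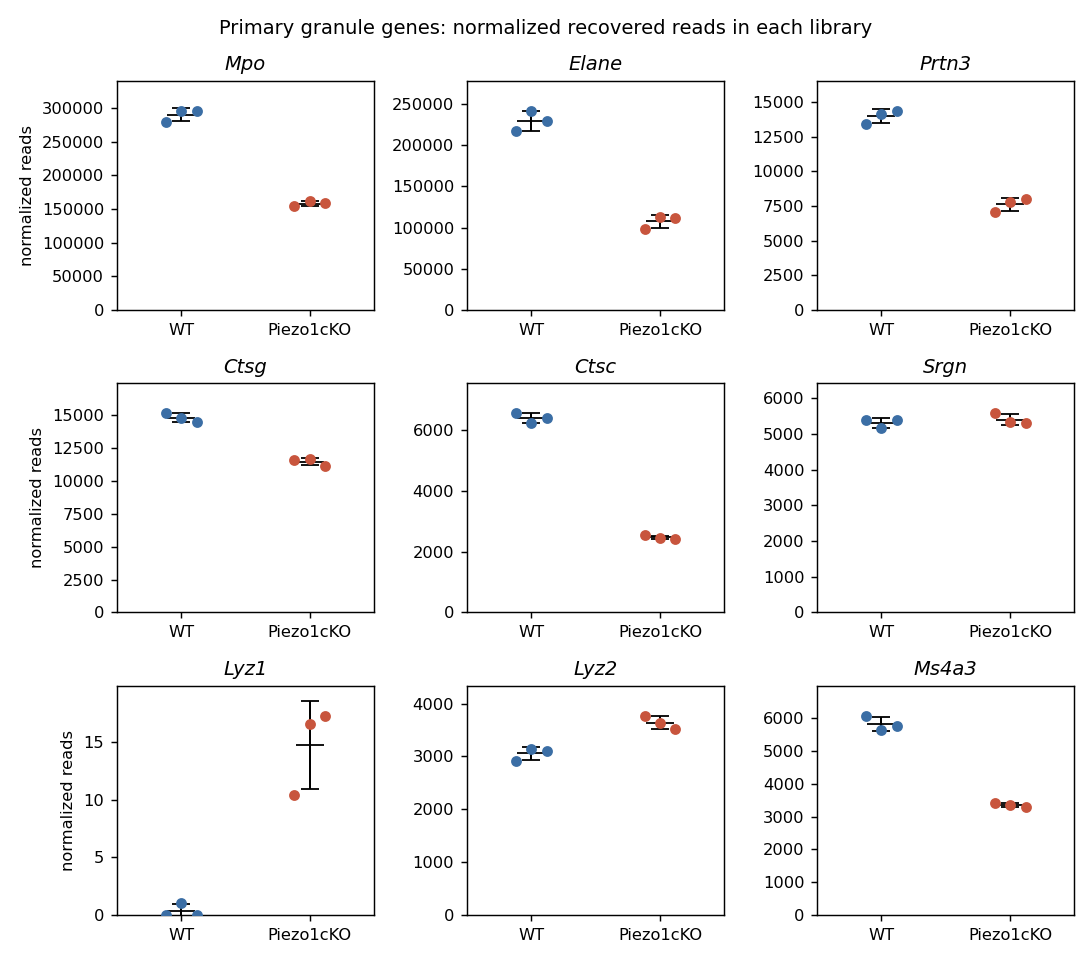
Points give the normalized recovered reads of each primary granule gene in each library, with the mean and SD of 3 libraries per group, and every vertical axis starts at 0. Mpo, Elane, Prtn3, Ctsg, Ctsc and Ms4a3 are lower in every Piezo1cKO library than in any WT library, Lyz1 and Lyz2 are higher, and Srgn overlaps.

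Mpo encodes myeloperoxidase, the peroxidase that gives the granules their classical stain. It had 287430, 293219 and 307200 recovered reads in WT libraries and 147303, 165652 and 155867 in Piezo1cKO libraries. The lowest WT library was above the highest Piezo1cKO library. Normalized reads fell from 290116 ± 9722 to 157982 ± 3832 (SD, n = 3 per group), to 54.5% of WT. The log2 fold change was -0.65 ± 0.01 (SE) on the deposited scale (limma, adjusted p = 2.36e-17) and -0.88 on recovered reads. Mpo had more reads than any other gene in WT LSCs and ranked 4 in Piezo1cKO LSCs.

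Elane encodes neutrophil elastase. Its reads were 224298, 239503 and 238799 in WT libraries and 94453, 115674 and 109997 in Piezo1cKO libraries. Piezo1cKO replicate 1 was the lowest of the 6, and the groups were far apart. Normalized reads fell from 229692 ± 12033 to 107783 ± 7903, to 46.9% of WT, with a log2 fold change of -0.81 ± 0.03 (SE) on the deposited scale (limma, adjusted p = 1.67e-14) and -1.09 on recovered reads. Per transcript length, Elane was the most abundant gene in both groups, at 51289 ± 2539 TPM (transcripts scaled to a common library sum after division by exon length) in WT and 24418 ± 1657 TPM in Piezo1cKO LSCs. By the same measure Mpo ranked 2 in WT, at 18618 ± 594 TPM, and 5 in Piezo1cKO, at 10287 ± 192 TPM.

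Prtn3 encodes proteinase 3, a close relative of elastase whose gene lies beside Elane. It had 13857, 14040 and 14940 reads in WT libraries and 6788, 8003 and 7862 in Piezo1cKO libraries, again without overlap. Normalized reads fell from 13996 ± 488 to 7631 ± 478, to 54.5% of WT, the same share as Mpo. Prtn3 had a log2 fold change of -0.64 ± 0.03 (SE) on the deposited scale (limma, adjusted p = 4.69e-13) and -0.88 on recovered reads.

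Ctsg encodes cathepsin G, the chymotrypsin-like protease of the granule, and it fell least of the 6. Its reads were 15589, 14646 and 15001 in WT libraries and 11081, 11932 and 10969 in Piezo1cKO libraries. The groups did not overlap, although Piezo1cKO LSCs kept 77.5% of the WT level (14779 ± 347 to 11456 ± 257 normalized reads). This was a log2 fold change of -0.27 ± 0.02 (SE) on the deposited scale (limma, adjusted p = 1.14e-09) and -0.37 on recovered reads.

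Ctsc encodes dipeptidyl peptidase I (cathepsin C), the enzyme that activates elastase, proteinase 3 and cathepsin G. It fell furthest of the 6. Reads were 6766, 6205 and 6670 in WT libraries and 2430, 2529 and 2389 in Piezo1cKO libraries, a narrow spread in each group. Normalized reads fell from 6415 ± 152 to 2478 ± 55, to 38.6% of WT. The log2 fold change was -0.99 ± 0.02 (SE) on the deposited scale (limma, adjusted p = 1.29e-16) and -1.37 on recovered reads. Its 95% interval on the deposited scale, -1.04 to -0.94, spans the fold threshold of 1.

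Ms4a3 encodes a membrane protein of the MS4A family that marks granulocyte-monocyte progenitors and their descendants. Reads were 6259, 5590 and 5997 in WT libraries and 3260, 3445 and 3242 in Piezo1cKO libraries. No Piezo1cKO library reached the WT range, and normalized reads fell from 5828 ± 222 to 3354 ± 53.5, to 57.6% of WT. Ms4a3 thus had a log2 fold change of -0.58 ± 0.03 (SE) on the deposited scale (limma, adjusted p = 7.02e-13) and -0.80 on recovered reads.

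Srgn encodes serglycin, the proteoglycan core protein of granules in neutrophils, mast cells and cytotoxic lymphocytes. It had 5550, 5108 and 5591 reads in WT libraries and 5340, 5465 and 5203 in Piezo1cKO libraries. The groups overlapped. The log2 fold change on recovered reads was 0.02 with a 95% interval of -0.04 to 0.09 (limma-voom, adjusted p = 0.507), so the changes measured for the 6 genes that fell lie outside the interval.

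Lyz2 encodes the lysozyme of myeloid cells, which cleaves bacterial cell walls and is stored in several granule types. Its reads were 3010, 3113 and 3227 in WT libraries and 3606, 3725 and 3452 in Piezo1cKO libraries. Every Piezo1cKO library was above every WT library, and normalized reads rose from 3056 ± 118 to 3637 ± 127, to 119% of WT. The log2 fold change was 0.18 ± 0.03 (SE) on the deposited scale (limma, adjusted p = 2.27e-05) and 0.25 on recovered reads.

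Lyz1, the lysozyme gene best known from Paneth cells of the intestine, was close to absent. It had 0, 1 and 0 reads in WT libraries and 10, 17 and 17 in Piezo1cKO libraries. The ratio of rates was 45.4 with an exact 95% interval of 7.74 to 1834, which covers counting error only. On the deposited scale, where a gene with so few reads is pulled hardest, the log2 fold change was 0.11 ± 0.02 (SE; limma, adjusted p = 3.28e-05). Of the reads on both lysozyme genes, Lyz1 took 0% (95% Wilson interval up to 0.127), 0.0321% (0.00567 to 0.182) and 0% (up to 0.119) in WT libraries, where 3 counts, the limit that a count of 0 allows, are 0.093 to 0.0997%. It took 0.277% (95% Wilson interval 0.15 to 0.508), 0.454% (0.284 to 0.726) and 0.49% (0.306 to 0.783) in Piezo1cKO libraries. The intervals of WT replicate 2 and Piezo1cKO replicate 1 overlapped. The longest transcripts of Lyz1 and Lyz2 are 96.0% identical over 1262 aligned bases, and 195 of 1214 stretches of 50 bases in Lyz1 (16.1%) also occur in Lyz2. The division of reads between them is therefore uncertain in part, and its part in the Lyz1 values was not tested.

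**Figure D3:**
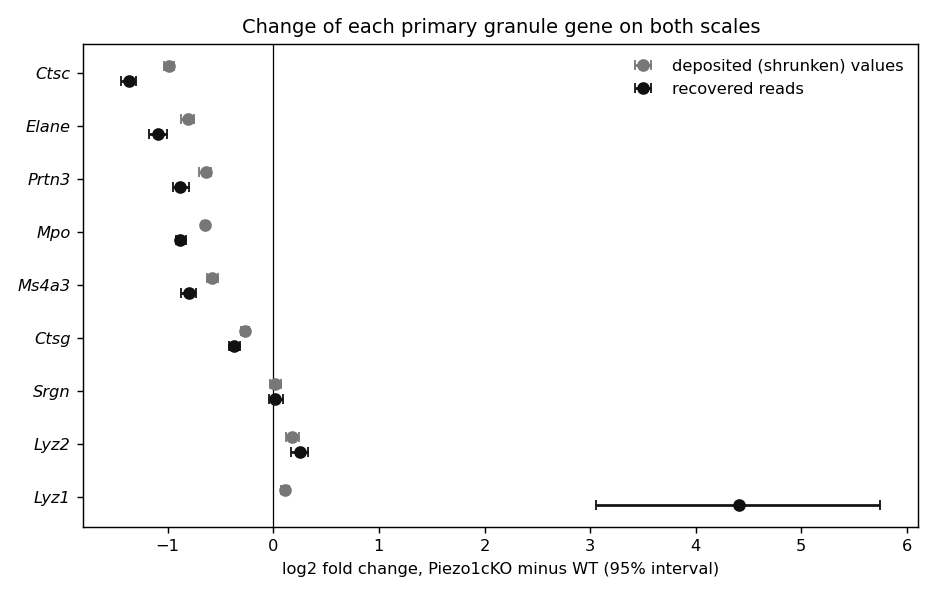
Points give the log2 fold change of each primary granule gene, Piezo1cKO minus WT, with its 95% interval, from limma on the deposited values (grey) and limma-voom on recovered reads (black). The 6 genes that fell lie under 0 on both scales, the interval of Srgn spans 0, and Lyz1, with 1 WT read in all, reaches 4.41 on recovered reads against 0.11 on the deposited scale.

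The 6 genes that fell did not keep their proportions to one another, and ratios within a library show this free of library size. Mpo reads per Elane read were 1.26 ± 0.0345 in WT and 1.47 ± 0.0783 in Piezo1cKO libraries. The Piezo1cKO ratios, 1.42 to 1.56, were all above the WT ratios (exact two-sided permutation p = 0.1, the smallest possible). Elane reads per Prtn3 read went the other way, from 16.4 ± 0.571 to 14.1 ± 0.292 (exact permutation p = 0.1). Mpo reads per Prtn3 read were 20.7 ± 0.162 in WT and 20.7 ± 0.938 in Piezo1cKO libraries, and these overlapped (exact permutation p = 1.0). The ratio of Prtn3 to Ctsg was 0.948 ± 0.0543 in WT and 0.667 ± 0.0522 in Piezo1cKO libraries. For the activating enzyme and the scaffold, Ctsc reads per Srgn read were 1.22, 1.21 and 1.19 in WT libraries and 0.455, 0.463 and 0.459 in Piezo1cKO libraries. In all 12 such ratios were formed, and with a smallest p of 0.1 none could pass an adjusted threshold.

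Per transcript length the other granule genes lay well below Elane and Mpo. In WT LSCs they ran from Ctsg at 3144 ± 75 TPM and Prtn3 at 1776 ± 60.2 TPM to Ms4a3 at 680 ± 27.6, Srgn at 531 ± 14.8, Lyz2 at 510 ± 18.7 and Ctsc at 243 ± 6.44 TPM. Srgn and Lyz2 were neighbours in this order whose WT ranges overlapped. In Piezo1cKO LSCs Lyz2, at 616 ± 24.5 TPM, and Srgn, at 548 ± 18.9 TPM, stood above Ms4a3, at 397 ± 8.14 TPM. Among all genes Ctsc moved from rank 792 to rank 2194 and Prtn3 from 36 to 113 on this scale, while Srgn was at 263 in WT and 266 in Piezo1cKO LSCs.

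Of 1732 genes with a mean of at least 2000 normalized reads, a limit chosen after values were seen, 33 (1.91%) were lower with a log2 fold change under -1 on recovered reads, beside 12.2% of all genes fitted, and Ctsc and Elane are 2 of them. Of the primary granule genes 8, all but Lyz1, are this abundant.

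Of the 9 genes, 5 lie on chromosome 10, in 3 places (GRCm38, GENCODE M21). Prtn3 (chr10:79874476-79883174, 5 exons) and Elane (chr10:79886247-79888215, 5 exons) stand on the plus strand 3073 bases apart. Lyz2 (chr10:117277331-117282321, 4 exons) and Lyz1 (chr10:117287797-117292868, 4 exons) stand on the minus strand 5476 bases apart, and Srgn is at chr10:62493833-62527451 on the same strand. Mpo lies at chr11:87793581-87804413 on the plus strand with 14 exons, Ctsg at chr14:56099881-56102574 on the minus strand, Ctsc at chr7:88278085-88310888 on the plus strand and Ms4a3 at chr19:11629496-11640851 on the minus strand. The protocol does not mark strand. Of the exon bases of Prtn3, 159 (9.2%) are shared with Plppr3 on the opposite strand, which had 2149 to 2712 reads and did not differ between groups (log2 fold change 0.00, limma, adjusted p = 0.916). Of those of Mpo, 512 (15%) are shared with the antisense gene Gm11505, which had 41 to 56 reads.

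The window from 250 bases before to 50 after the start of each gene is shown for the 4 genes that fell furthest on the deposited scale and for both lysozyme genes, so that shared and unshared promoter letters can be seen beside the values (RefSeq, GRCm38.p6, 5′ to 3′ in the direction of the gene). Capitals mark 2 short motifs bound by granulocyte factors, the ETS letters AGGAAG, as recognized by the Spi1 protein, and the C/EBP letters TTNNGNAA, on either strand. The windows are chr11:87793534-87793833, plus strand for Mpo, chr10:79886062-79886361, plus strand for Elane, chr10:79879417-79879716, plus strand for Prtn3, chr7:88277835-88278134, plus strand for Ctsc, chr10:117292819-117293118, minus strand for Lyz1 and chr10:117282223-117282522, minus strand for Lyz2.
Mpo: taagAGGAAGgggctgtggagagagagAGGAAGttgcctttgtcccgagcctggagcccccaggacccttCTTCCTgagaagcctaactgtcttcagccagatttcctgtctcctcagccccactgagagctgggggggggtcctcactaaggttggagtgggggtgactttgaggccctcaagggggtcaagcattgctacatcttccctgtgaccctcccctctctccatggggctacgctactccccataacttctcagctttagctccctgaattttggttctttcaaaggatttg
Elane: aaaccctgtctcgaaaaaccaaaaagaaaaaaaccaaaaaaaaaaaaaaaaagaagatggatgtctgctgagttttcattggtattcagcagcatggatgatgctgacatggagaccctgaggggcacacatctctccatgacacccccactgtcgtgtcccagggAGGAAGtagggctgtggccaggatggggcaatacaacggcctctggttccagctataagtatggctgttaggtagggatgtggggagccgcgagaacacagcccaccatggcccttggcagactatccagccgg
Prtn3: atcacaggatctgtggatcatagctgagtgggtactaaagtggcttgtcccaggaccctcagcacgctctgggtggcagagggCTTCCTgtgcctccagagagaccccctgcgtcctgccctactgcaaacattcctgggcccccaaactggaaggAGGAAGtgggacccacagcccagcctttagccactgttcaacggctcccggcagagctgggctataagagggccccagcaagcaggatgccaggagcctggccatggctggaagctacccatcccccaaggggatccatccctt
Ctsc: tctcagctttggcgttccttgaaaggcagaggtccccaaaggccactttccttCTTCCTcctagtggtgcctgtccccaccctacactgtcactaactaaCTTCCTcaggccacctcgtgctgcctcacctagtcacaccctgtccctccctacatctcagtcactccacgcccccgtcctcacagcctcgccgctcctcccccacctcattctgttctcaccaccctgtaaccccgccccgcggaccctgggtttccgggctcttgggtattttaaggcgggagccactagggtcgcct
Lyz1: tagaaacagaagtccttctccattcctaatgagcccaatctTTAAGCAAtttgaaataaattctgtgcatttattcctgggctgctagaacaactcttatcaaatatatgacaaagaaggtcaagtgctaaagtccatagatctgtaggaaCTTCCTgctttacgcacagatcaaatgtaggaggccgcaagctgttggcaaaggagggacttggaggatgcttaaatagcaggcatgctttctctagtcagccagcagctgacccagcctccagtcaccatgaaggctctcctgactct
Lyz2: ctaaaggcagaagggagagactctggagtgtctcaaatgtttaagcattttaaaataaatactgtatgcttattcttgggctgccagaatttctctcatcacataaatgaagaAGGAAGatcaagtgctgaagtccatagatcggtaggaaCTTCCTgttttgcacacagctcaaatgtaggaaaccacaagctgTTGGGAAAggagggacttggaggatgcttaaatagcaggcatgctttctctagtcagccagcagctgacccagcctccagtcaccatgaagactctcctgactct
The ETS letters occurred 3 times in the Mpo window, 2 times each in those of Prtn3, Ctsc and Lyz2, and 1 time each in those of Elane and Lyz1. The Lyz1 and Lyz2 windows are 83.6% identical over 298 aligned bases. The RefSeq start of Prtn3 lies inside the GENCODE span of the gene.

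All 9 genes had such a window, and Srgn had 2, of which the upstream start is counted unless stated. The ETS letters were present in 8 of 9 windows, all but those of Srgn, beside 35.4% of 32851 windows of the same length. MYB letters (AACNG) were in 8 of 9, beside 80.3%. C/EBP letters were in 3 of 9 (Lyz1, Lyz2 and Ms4a3), beside 40.7%, and RUNX letters (TGNGGT) were in 3 of 9 (Ctsg, Ctsc and Lyz2), beside 45.8%. The second Srgn window held both (C/EBP letters at 5 places and RUNX letters at 2), and with it each count is 4 of 9. The composite letters of ATF4 with C/EBP (TGATGNAA), which can overlap a C/EBP match, were in the Ctsg window, beside 4.0%, and HIF1 letters (ACGTG) were in 0 of the 9, beside 19.6%. The second Srgn window held each of these at 1 place. For HIF1A the paper names other letters, GCGTG or GCGTA, which were not counted here. They can be read on the opposite strand in the printed windows of Mpo, Prtn3, Ctsc and Lyz1, and not in those of Elane and Lyz2. So the 0 holds for ACGTG alone. The counts given are matches of letters, both strands searched, and not binding sites.

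The genes around the granule genes were read next, since several sit among relatives. Of 56 protein-coding neighbours, 4 on each side of each gene, 34 were tested. Of these, 11 were higher and 11 lower, beside 31.6% and 31.4% of all genes tested. Their median log2 fold change was -0.01, beside 0.001 for all genes tested. Epx, the peroxidase of eosinophil granules, lies 59587 bases from Mpo and fell further than Mpo, from 2013 ± 57.6 to 478 ± 29.8 normalized reads (log2 fold change -1.38 on the deposited scale, limma, adjusted p = 1.19e-16). Mpo reads per Epx read were 144 ± 6.24 in WT and 331 ± 13.1 in Piezo1cKO libraries (exact two-sided permutation p = 0.1). Tspoap1, 7653 bases from Mpo, fell to 54.4% of WT, from 3757 ± 158 to 2043 ± 64.6 normalized reads (limma, adjusted p = 1.46e-12). Mpo itself was at 54.5%. The other tested neighbours of Mpo outside its family varied, with Rnf43 at 75.8%, Mks1 at 81.9% and Supt4a at 127% of WT. Hsf5 was at 13.2%, with at most 12 reads in a library. Lpo, the lactoperoxidase gene 2015 bases from Mpo, had 1.64 normalized reads in WT and 2.02 in Piezo1cKO LSCs. It was under the minimum on the deposited scale and was not called on recovered reads (log2 fold change 0.29, 95% interval -0.92 to 1.5). Cfd, the complement factor D gene 2638 bases beyond Elane and a serine protease of the same locus, had 6.55 and 5.01 normalized reads and was not called.

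Around Ctsg, the mast cell protease gene Mcpt8, a basophil marker, rose from 99.6 ± 5.16 to 201 ± 13.1 normalized reads, while Ctsg fell (limma, adjusted p = 7.14e-08 for Mcpt8). Mcpt4 and Gzmn had at most 1 read in a library, and Mcpt2, Mcpt9, Gzmd, Gzme and Gzmg were listed at 0. Around Ms4a3, Ms4a2, the beta chain of the IgE receptor, rose from 19.9 ± 1.55 to 73 ± 8.13 normalized reads and Ms4a6b from 1251 ± 15.6 to 1792 ± 129, while Ms4a6d, at 68.9 and 53.4, was not called and Ms4a4d, at 0 and 1.04, was not tested.

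**Figure D4:**
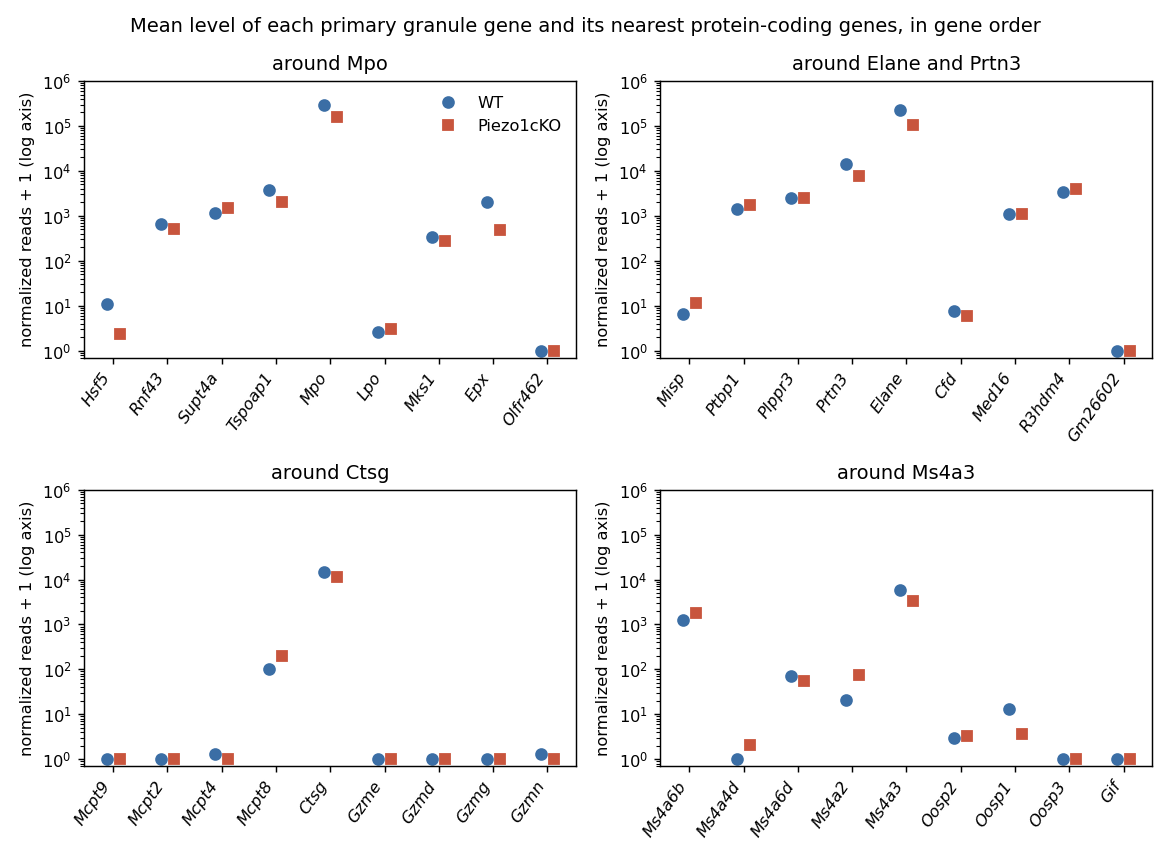
Points give the mean normalized reads plus 1, on a log axis, of Mpo, Elane, Ctsg and Ms4a3 and of the 4 protein-coding genes on each side, in gene order, with WT as circles and Piezo1cKO as squares. Mpo, Tspoap1 and Epx are lower in Piezo1cKO, whereas Mcpt8 beside Ctsg and Ms4a2 beside Ms4a3 are higher.

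Further content of azurophil granules, a list of 30 enzymes and lysosomal proteins of which 29 were tested, did not move as a block. In this list 12 were higher and 8 lower (median log2 fold change 0.02, beside 0.001 for all genes tested). The share called was 69%, beside 63% of all genes tested. Prss57, neutrophil serine protease 4, fell from 1535 ± 15.4 to 1023 ± 73.5 normalized reads (log2 fold change -0.40, limma, adjusted p = 1.32e-08). It moved the same way as Elane, Prtn3 and Ctsg. Gla, the lysosomal alpha-galactosidase, fell from 1260 ± 42.1 to 846 ± 51.4. Ctss, the cysteine protease cathepsin S, rose from 664 ± 30.8 to 1287 ± 35.6, and Plbd1, a phospholipase B-like protein, rose from 13.2 ± 6.16 to 232 ± 7.36. Bpi, the gene of the bactericidal permeability-increasing protein, was listed at 0.

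The inhibitors that keep granule proteases in check moved in both directions. Of 17 genes 12 were tested, 4 higher and 5 lower (75% called, beside 63% of all genes tested), with a median of 0.00. Serpina3g, a serpin that inhibits serine and cysteine proteases, fell from 1143 ± 37.4 to 182 ± 11.9 normalized reads (log2 fold change -1.58, limma, adjusted p = 3.46e-17), and its relative Serpina3f fell from 133 ± 16.5 to 13.9 ± 2.57. Cst7, cystatin F, which inhibits cathepsin C, rose from 505 ± 23.5 to 1535 ± 20.7 (log2 fold change 1.05, limma, adjusted p = 3.92e-15) while Ctsc itself fell. Serpinb1a, an inhibitor of elastase, proteinase 3 and cathepsin G, rose from 1227 ± 25.9 to 1660 ± 63.4, and Serpinb6a, an inhibitor of cathepsin G, rose from 141 ± 10.5 to 237 ± 23.6.

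Genes of granule sorting and release, 32 in all, were higher in 9 cases and lower in 11 (median -0.02). The 62.5% called was close to the 63% of all genes tested. Snap23, a SNARE of granule exocytosis, fell from 1775 ± 35.4 to 1137 ± 41.9 normalized reads, and Ap3b1, the AP-3 subunit needed to sort elastase, fell from 1214 ± 49.4 to 866 ± 11.9. Rab27b, a Rab GTPase of granule docking, had 62, 51 and 50 reads in WT libraries and 0 in all 3 Piezo1cKO libraries, at least 17.7-fold lower against a floor of 3 reads per library. Hps4, of the BLOC-3 complex, fell from 330 ± 15.4 to 217 ± 31.6. The enzymes that build the glycosaminoglycan chains carried by serglycin were higher in 7 cases and lower in 7 of 20 tested (median -0.01). In this list 70% were called. Chst15, which makes the highly sulfated chondroitin sulfate E, rose from 24.4 ± 4.63 to 186 ± 8.27, and Ndst2, needed for heparin on mast cell serglycin, rose from 52.6 ± 3.95 to 168 ± 22. The linker and heparan enzymes B3galt6, from 500 ± 23.2 to 320 ± 27.8, and Extl3, from 220 ± 9.42 to 122 ± 6.97, fell.

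Of 15 transcription factors known to act on granule genes, 7 were higher and 7 lower (median -0.08). This was 93.3% called, beside 63% of all genes tested. Among C/EBP factors, Cebpa rose from 122 ± 5.28 to 282 ± 2.07 normalized reads, Cebpb fell from 950 ± 10.5 to 34.4 ± 1.73 (log2 fold change -2.37, limma, adjusted p = 8e-20), and Cebpg fell from 367 ± 16.3 to 152 ± 18.9. Cebpe, the factor of the later granule stages, rose from 6817 ± 203 to 7482 ± 478 with overlapping libraries, and Cebpd, at 1080 and 984, was not called. The members of this family therefore moved in opposite directions in the same libraries.

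Spi1, which encodes the ETS factor of the myeloid lineage, fell from 9645 ± 278 to 7527 ± 484 normalized reads. The core-binding factor subunits parted, since Runx1 rose from 553 ± 32.8 to 748 ± 23.5 while its partner Cbfb fell from 1679 ± 81.8 to 471 ± 24.1. Rara, the retinoic acid receptor, fell from 499 ± 18.8 to 148 ± 3.34. Falls were also measured for Gfi1, a repressor needed for neutrophil development, from 114 ± 9.97 to 85.9 ± 4.13, and for Myb, from 2891 ± 70.9 to 2684 ± 100. The monocyte-side factors Irf8 (5184 ± 110 to 6386 ± 185), Klf4 (45.9 ± 9.24 to 109 ± 7.11) and Egr1 (182 ± 1.89 to 421 ± 17.7) rose, as did Cux1 (1383 ± 43 to 1535 ± 62.4), a repressor of later granule genes.

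**Figure D5:**
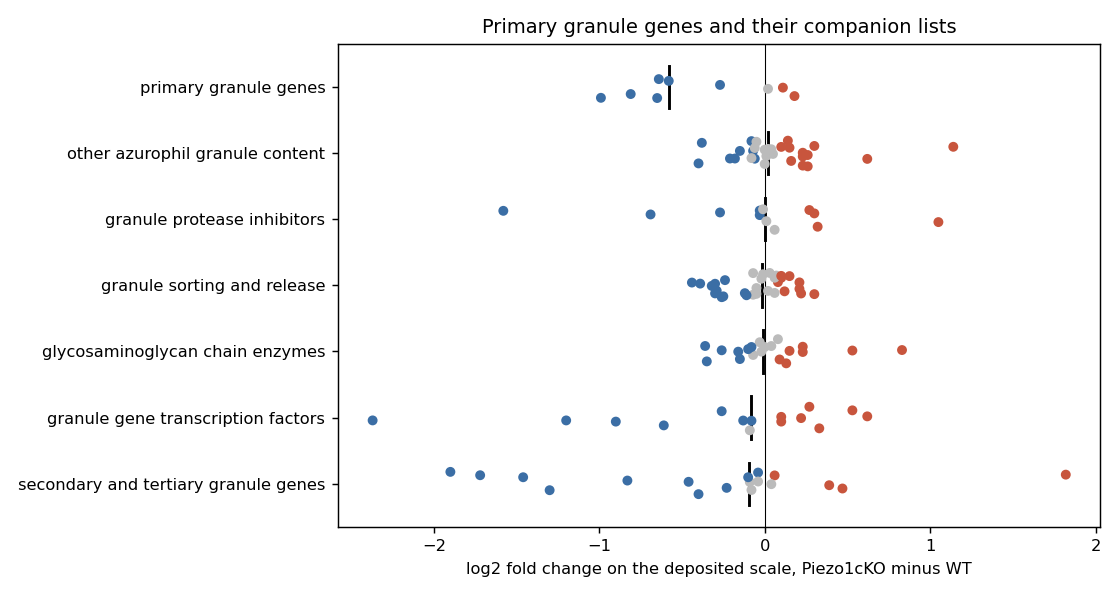
Each point is the log2 fold change of a gene on the deposited scale, Piezo1cKO minus WT, for the 9 primary granule genes and 6 companion lists, with called genes in blue (lower) and red (higher), other genes in grey and the list median as a black bar. The median of the primary granule genes is -0.58, and those of the other lists run from -0.09 to 0.02. On recovered reads, not drawn, the median is -0.8 for the primary granule genes. Those of the other lists run there from -0.5, for secondary and tertiary granule genes, to 0.03.

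Genes of the later secondary and tertiary granules, 18 tested, were higher in 4 cases and lower in 10 (median -0.09). This was 77.8% called, beside 63% of all genes tested. That median is on the deposited scale, and on recovered reads it was -0.5, beside 0 for all genes fitted. On recovered reads 7 were lower and 3 higher past an absolute log2 fold change of 1, beside 12.2% and 12.7% of all genes fitted. Ngp fell from 1277 ± 32.2 to 140 ± 12.4 normalized reads, Fcnb from 1307 ± 44.7 to 184 ± 11.3 and Camp from 688 ± 28.7 to 100 ± 6.45, whereas the collagenase gene Mmp8 rose from 42.5 ± 4.65 to 633 ± 15.1.

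Markers of other cell types also moved between the groups, in a comparison where 31.6% of all genes tested were called higher and 31.4% lower. The 9 mature neutrophil markers summed to 174 to 175 CPM (recovered reads scaled to the library total) in WT and 111 to 114 in Piezo1cKO libraries. Of the 7 tested, 1 was higher and 4 were lower. Csf3r, which had the most reads of the list, fell from 1800 ± 13.7 to 1204 ± 26.3 normalized reads. S100a8 fell from 216 ± 12 to 18.9 ± 4.81 and S100a9 from 262 ± 12.1 to 6.09 ± 2.15. Cxcr4 rose from 259 ± 19.2 to 358 ± 6.93, and Cxcr2 and Il1r2 were not called. Ly6g was at or near 0 and Retnlg was listed at 0. The 14 monocyte and macrophage markers summed to 2491 to 2511 CPM in WT and 1663 to 1738 in Piezo1cKO libraries, with 4 of 11 tested higher and 3 lower. F13a1, which had the most reads of the list, fell from 22510 ± 430 to 15351 ± 480 normalized reads, Cd14 fell from 6175 ± 258 to 444 ± 40.6 and Ccr2 rose from 548 ± 27.4 to 1233 ± 96.5, while Fcgr1 and C1qa were listed at 0. The others called higher had few reads. C1qc had 0 reads in every WT library and 15 to 29 in Piezo1cKO libraries. Mrc1 had 0 in every WT library and 7 to 17 in Piezo1cKO libraries, and C1qb had 0 to 2 and 6 to 17. The 9 eosinophil markers summed to 485 to 524 and 497 to 520 CPM, with 4 of 8 tested higher and 3 lower. Prg2, which had the most reads of the list, rose from 5054 ± 220 to 6163 ± 159 normalized reads. Prg3 rose from 193 ± 21.5 to 446 ± 6.07, while Epx fell.

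The 11 mast cell and basophil markers summed to 335 to 353 CPM in WT and 1079 to 1088 in Piezo1cKO libraries. Of the 9 tested, 8 were higher and 0 lower, beside 31.6% and 31.4% of all genes tested. The higher ones included Cpa3 (565 ± 30.6 to 5003 ± 185 normalized reads), Hdc (816 ± 20.2 to 3693 ± 21.6), Prss34 (2277 ± 52.5 to 4442 ± 151) and Gata2 (1363 ± 53.8 to 2478 ± 98.3). Mcpt4 was at or near 0. The 16 lymphoid markers summed to 818 to 846 and 1527 to 1548 CPM, with 7 of 8 tested higher. Ighm rose from 10751 ± 237 to 20043 ± 175 normalized reads and Cd79b from 1563 ± 33.2 to 2487 ± 113, while Klrb1c and Gzmb had 0 reads in every WT library and 32 to 52 and 17 to 30 in Piezo1cKO libraries. The 11 erythroid and megakaryocyte markers summed to 25.9 to 31.4 and 20.8 to 23.4, with 2 of 8 tested higher and 4 lower. Itga2b rose from 135 ± 10.8 to 269 ± 17.3 normalized reads and Pf4 fell from 93 ± 14.6 to 8.74 ± 1.27 normalized reads. The part of these markers in the values of the primary granule genes was not tested.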

How the data were processed

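RNA-seq of 3 WT and 3 Piezo1cKO LSC libraries was analysed. Per the labels, the authors processed the reads with fastp (version 0.20.1), HISAT2 (version 2.2.1), featureCounts (version 2.0.1) and DESeq2 (version 1.28.1) on GRCm38. The deposited values are log2 values, 1 column per library, with the form of a regularized log, which the sources used here do not name; this form shrinks fold changes. Over 18332 genes averaging 1 read or more, undoing it gave 92.6% of values within 0.1 of a whole number (22.3% with the shrinkage 10% off). The share was 84.4% for genes over 1000 reads, the class of 8 of the 9 members. Simulated reads without a group difference, passed through the same assumed transform, came back at 100%. That result checks the undoing and not the form of the deposited values.

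The main fit was limma (version 3.58.1, R version 4.3.3; lmFit, eBayes with a trend, no covariates) on genes with a mean value of at least 1 (16746), with Benjamini-Hochberg adjustment. Recovered reads (17352 genes with at least 10 reads in total) were fitted with limma-voom. On simulated data with 200 changed genes, 198 of 200 were found on the deposited scale and 200 on reads, each with 5 false calls. Replicates differed beyond counting noise (chi-square per degree of freedom 1.6 to 3.18), so none was counted as a duplicate. The excess was small. For genes over 1000 reads the median coefficient of variation beyond counting was 1.79% in WT and 2.14% in Piezo1cKO libraries. These values do not tell whether the libraries came from separate mice. The exact and Wilson intervals of Lyz1 cover counting error only, and the limma intervals rest on the spread between libraries. TPM used the exon bases of GENCODE M21. Python (version 3.11.15) served for the rest.

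The 9 genes, the companion lists and the motifs were chosen with earlier results of these data known. Genes named are the 9 members, all listed transcription factors, Prss57, Bpi and Serpinb1a, called genes past an absolute log2 fold change of 0.5 in lists of up to 15 genes and the 4 largest called changes in longer lists, neighbours of the same family or past 1, and Piezo1. Kit, Cd34, Fcgr3, Ly6g, Retnlg, Fcgr1, C1qa, Cebpd, F13a1, Itga2b, Plppr3 and Gm11505 are named besides, for the markers, overlaps or contrast they show. Csf3r, Cxcr4, Cxcr2, Il1r2, Prg2, C1qb, C1qc, Mrc1, Tspoap1, Hsf5, Rnf43, Mks1 and Supt4a are named for the same reasons. Alternatives were other filters, scalings and variance models, a replicate block, each library left out and recovered reads.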

Additional observations from a re-analysis of the deposited data

How the results depend on the processing

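The calls of the 9 genes held in the alternatives run, with 6 lower, 2 higher and Srgn not called. The exception is the filter of at least 50 reads on average, which left Lyz1 out (7 of 8 called). No value reversed. The count of members past both thresholds, 0 on the deposited scale, was 0 to 1 with each library left out, and the 1 is Ctsc without WT replicate 2 or without Piezo1cKO replicate 1. It was 3 on recovered reads with size factors, with library totals, and with totals without the 9 genes. Genes past both thresholds numbered 137 on the deposited scale, 134 to 144 with each library left out, and 4323, 4333 and 4320 on recovered reads with those 3 scalings. The fits on reads differ from the deposited one in shrinkage, filter and variance model together, and the cause was not tested. Shifting libraries to a common median moved the split of all called genes from 5298 higher and 5258 lower to 6450 and 4214, with a shift of the median log2 fold change to 0.023. With the replicate block 11055 genes were called on the deposited scale and 11225 on reads, against 10556 and 10921 without it, and no call of the 9 genes changed. Same-numbered libraries deviated together only weakly (correlations 0.2, 0.16 and 0.07), so the numbers were not taken as pairs. Each WT library correlated best with its own number, a hint from the data and not from the design. Depth limits Lyz1, which rests on 1 WT read.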
